A study of Mus musculus with 12 samples.

Results

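MHC class II genes were followed through bone marrow stem and progenitor cells of 4 mouse genotypes at 3 time points. The 7 genes, of 27998 in each table, were listed by symbol. Cd74 encodes the invariant chain that escorts new class II molecules. H2-Aa and H2-Ab1 encode the I-A alpha and beta chains, and H2-Eb1 encodes the I-E beta chain. H2-DMa and H2-DMb1 encode the chaperone that exchanges the peptide bound to class II, and Ciita encodes the coactivator that switches class II promoters on.

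Single-cell 3′ libraries were made from bone marrow cells enriched magnetically for c-Kit, the receptor carried by most hematopoietic stem and progenitor cells (HSPCs). WT mice lacked the Mx1-Cre transgene, E2-KO mice were Mx1-Cre+; Ezh2 f/f, G12D mice were Mx1-Cre+; NRas G12D+/-, and G12D/E2-KO mice carried Mx1-Cre with both alleles. All genotypes, WT included, received 5 injections of the interferon inducer pIpC at an age of 8 to 12 weeks by the labels (the study's text gives a younger age), and Mx1-Cre is itself driven by an interferon-inducible promoter, so Cre acts in many interferon-responsive cells and not in HSPCs alone. Cells were taken 2 weeks (T1), 2 months (T2) or 4 months (T3) later, with 1 library for each genotype and time point. The 3 libraries of a genotype therefore served as its replicates, and their spread holds time, animal and preparation together.

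The deposited tables held 35597 cells. Of the 66 pairs of libraries, 65 had no cell in common, but 2896 cells stood in the table of G12D T1 and again in that of G12D/E2-KO T1, making up 51.3% of the former and 95.1% of the latter. The Ezh2 level decided where they were kept: they stayed in G12D/E2-KO T1 and were taken out of G12D T1, which left 32701 cells, 2350 to 3767 in each library, with a median of 3780.5 to 6975.5 unique molecular identifiers (UMIs, each one captured transcript molecule) per cell. Ezh2 had 20.8 UMIs per 1000000 UMIs of all genes (counts per 1000000, CPM) in the 2896 shared cells, 15 in the 148 cells found only in the G12D/E2-KO T1 table and 86.3 in the 2752 found only in the G12D T1 table. Of the 2896 shared cells, 1494 were identical in every gene. After that step Ezh2 stood at 103 to 133 CPM in WT and at 81.7 to 103 in G12D. It stood at 27.7 to 34.6 in E2-KO and 20.7 to 25.3 in G12D/E2-KO, with no overlap between the deleted and undeleted genotypes. For G12D T1 this follows in part from the step, which used the Ezh2 level itself. Xist, the transcript of the inactive X chromosome, stood at 1296 to 1357 CPM in 3 libraries, WT T3, E2-KO T3 and G12D T3. In the other 9 it was at 0.608 or less, among them every G12D/E2-KO library (0.130 at T3). The sex of the mice was therefore not independent of time point or of genotype, and the part of sex in the values below was not tested.

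MHC class II molecules display peptides taken from the endocytic pathway to CD4+ T cells. Dendritic cells (DCs), macrophages and mature B cells are the professional carriers, and most other cells hold the genes silent until interferon gamma induces Ciita. In marrow, class II is also known on part of the early progenitor pool. A 3′ library gives 1 count per captured molecule, whatever the transcript length, so the CPM of a gene is its share of captured molecules.

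Of the 7 genes, 5 lie in 197 kb of chromosome 17 (GRCm38/mm10, chr17:34119541-34316674). From the proximal end they are H2-DMa (34119541 to 34139101, plus strand), H2-DMb1 (34153072 to 34160230, plus), H2-Ab1 (34257689 to 34269419, plus), H2-Aa (34282744 to 34287823, minus) and H2-Eb1 (34305867 to 34316674, plus). Ciita lies at chr16:10480059-10528418 on the plus strand. Class II promoters are known for an X box, bound by the RFX complex, followed by a Y box, bound by NF-Y, on which Ciita assembles. Matches to ATTGG (Y box) and AGCAAC (X box core) are in capitals below. The 100 bases before the RefSeq start of H2-Aa and H2-Eb1 are shown because DC-like cells held similar shares of both genes. They are written 5′ to 3′ on the strand of the gene, GRCm38.p6, chr17:34287824-34287923 (minus) and chr17:34305767-34305866 (plus).

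H2-Aa: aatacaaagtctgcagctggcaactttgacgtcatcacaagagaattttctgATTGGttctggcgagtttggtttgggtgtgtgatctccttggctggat

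H2-Eb1: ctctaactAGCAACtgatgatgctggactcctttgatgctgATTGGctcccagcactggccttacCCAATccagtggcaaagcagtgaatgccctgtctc

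Counting -1 as the last base before the start, ATTGG began at -48 in H2-Aa and at -59 in H2-Eb1, where a further match on the other strand began at -35 and AGCAAC began at -92, that is 33 bases ahead of the Y box. H2-DMb1 had ATTGG at -61 and the looser core AGNAAC at -95, 34 bases apart. That window (chr17:34153091-34153190) lies within the gene span given above and overlaps an exon of H2-DMb1. No window of H2-DMa held either motif in its last 100 bases, which says only that these letters were not there. The H2-DMa windows (chr17:34122732-34122831 and chr17:34125418-34125517) also lie within its span given above, and the first overlaps an exon of H2-DMa. Both strands were searched in 32851 windows of 100 bases before RefSeq starts of all genes: ATTGG was found in 18.9%, AGCAAC in 5.35%, AGNAAC in 18.7%, and ATTGG with AGNAAC in 3.38%. The tables of start windows covered 4 of the 7 genes with 5 windows, and the other 3 members were not analysed here.

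To separate carriers from the rest, the WT cells were clustered without the class II genes, clusters were named from marker genes, and cells of the other genotypes took the class of their nearest WT cell. In all, 3 classes were set aside as possible carriers: 245 DC-like, 1917 B lymphoid-like and 145 macrophage-like cells, with 30394 cells outside them, called other cells here. The DC-like label was checked against 12 markers, of which 10 had UMIs over all libraries (Klk1 and Cd209d had none) and 3 to 8 in a single library, with 3 in E2-KO T1, E2-KO T3 and G12D T2. The cells held Xcr1 at 224 CPM and Clec9a at 248, and the 12 markers together stood at 644. Siglech, one of the 12, had no UMI in the DC-like cells of any WT, E2-KO or G12D library. Irf8, which is not among the 12, stood at 1326. Irf8 was also among the leading genes of the monocyte progenitor-like cluster. Cd209a had no UMI in the DC-like cells of any G12D or G12D/E2-KO library. Clec10a, another marker, had none in those of any WT or G12D library, and Xcr1 none in E2-KO T1. Sorted by which subset list had more detected genes (such as Xcr1, Clec9a and Cd209a against Siglech, Ccr9 and Cox6a2), 197 of the 245 leaned to conventional DCs, 4 to plasmacytoid DCs and 44 to neither. Of the B lymphoid-like cells, 1828 leaned to a precursor list and 25 to a list of later B cells. The macrophage-like label was weak: none of its 11 markers was detected in the G12D T1 cells so named, and 1 of 11 in those of E2-KO T3, G12D/E2-KO T2 and G12D/E2-KO T3.

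Over all libraries together, the 245 DC-like cells, of 32701, contained 65.8% of the 87283 UMIs of the 7 genes, B lymphoid-like cells 4.38%, macrophage-like cells 2.08% and other cells 27.7%. Much of this came from 1 library: without G12D/E2-KO T1 the DC-like share was 43.6% of 46574 UMIs and that of other cells 45.3%, and DC-like cells held more than 50% in 3 of the 12 libraries. The genes split into groups by where their molecules were. DC-like cells held 84.3% of the UMIs of Cd74, 84.8% of H2-Aa and 83.5% of H2-Eb1 (68.3%, 72.8% and 70.1% without G12D/E2-KO T1). They held 64.6% of the 113 UMIs of Ciita and 59.1% of H2-Ab1, for which other cells held 31.1% and B lymphoid-like cells 8.46%. Without G12D/E2-KO T1, DC-like cells held 27 of 59 Ciita UMIs and 36.4% of H2-Ab1, and other cells held 47.2% of H2-Ab1. The peptide-exchange genes were the reverse: other cells held 83.6% of H2-DMa and 75.2% of H2-DMb1, and DC-like cells 12.6% and 22.3% (5% and 9.34% without that library). Class and gene were measured in the same cells, so these shares are descriptions and carry no test.

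**Figure D1:**
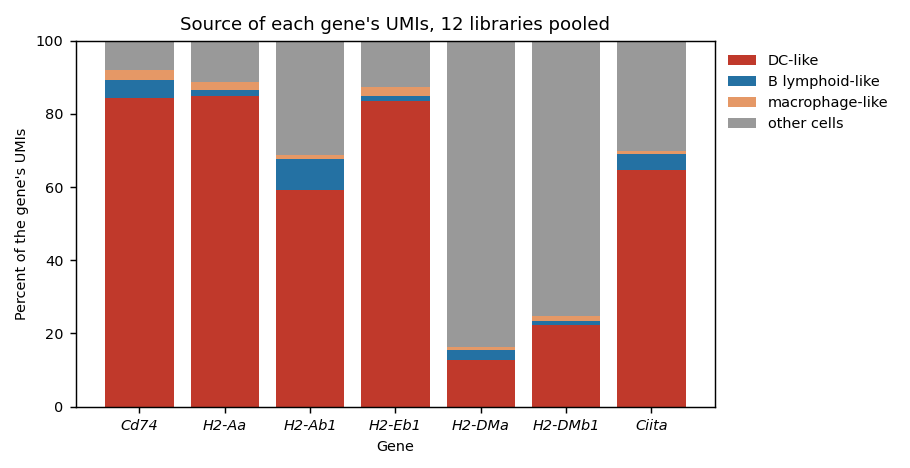
Share of each gene's UMIs, summed over the 12 libraries, that came from DC-like, B lymphoid-like, macrophage-like and other cells (bars stacked to 100%). Cd74, H2-Aa and H2-Eb1 were mostly DC-like, whereas H2-DMa (83.6%) and H2-DMb1 (75.2%) were mostly in other cells; G12D/E2-KO T1 gave much of the DC-like part, which was 43.6% of the 7 genes without it against 65.8% with it.

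Within DC-like cells all 7 genes stood at their highest of the named classes. Cd74 was at 20383 CPM, H2-Ab1 at 7879, H2-Aa at 7779, H2-Eb1 at 5195, H2-DMa at 1174, H2-DMb1 at 738 and Ciita at 54.9 (73 UMIs). Over the 12 libraries the Cd74 level of these cells ran from 9791 CPM in E2-KO T3 to 25374 in WT T3. The DC-like Cd74 level was 22377, 18002 and 25374 CPM at T1, T2 and T3 in WT, and 23008, 22408 and 9791 in E2-KO. In G12D it was 19743, 23252 and 13787, and in G12D/E2-KO 22840, 14093 and 10595. The genotypes overlapped, and because a library held 2 to 132 of these cells, with under 10 in 6 of the 12 libraries, no test was made between genotypes within the class. The 197 conventional cells held Cd74 at 21610 CPM, the 4 plasmacytoid at 11309 and the 44 in neither at 14152.

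The B lymphoid-like class was made of 3 clusters, of which the largest held far less Cd74, H2-Aa and H2-Eb1 than the other two. The 17 cells of the cluster led by Ms4a1, the mature B cell antigen CD20, held Cd74 at 7342 CPM, H2-Aa at 1271 and H2-Ab1 at 770. Among them, H2-Aa stood at 4328 CPM in 3 cells of WT T3 (38 UMIs) and at 520 in 8 of WT T1 (14 UMIs). The 82 cells led by Jchain, the joining chain of secreted antibody, held Cd74 at 4095 and H2-Ab1 at 344. The 1818 cells led by Vpreb3, a gene of B cell precursors, held Cd74 at 18.8 CPM, H2-Aa at 11.7 and H2-Eb1 at 6.01, but H2-Ab1 at 165. Late erythroid-like cells held the same genes at 12.0, 6.64, 6.56 and 10.5 CPM. Nearly all cells counted as B lymphoid here were of the Vpreb3-led cluster. The 145 macrophage-like cells held Cd74 at 1424 CPM, H2-Aa at 462, H2-DMa at 212 and H2-DMb1 at 89.1. Few cells carried this: 20 of them had 10 or more UMIs of Cd74, H2-Aa, H2-Ab1 and H2-Eb1 together. Those 20 held 94.8% of the class's 1622 UMIs of these genes, which stood at 155 CPM without them and 2582 with them. By library, macrophage-like Cd74 ran from 90.2 CPM (WT T3, 9 cells) to 11019 (E2-KO T1, 2 cells).

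**Figure D2:**
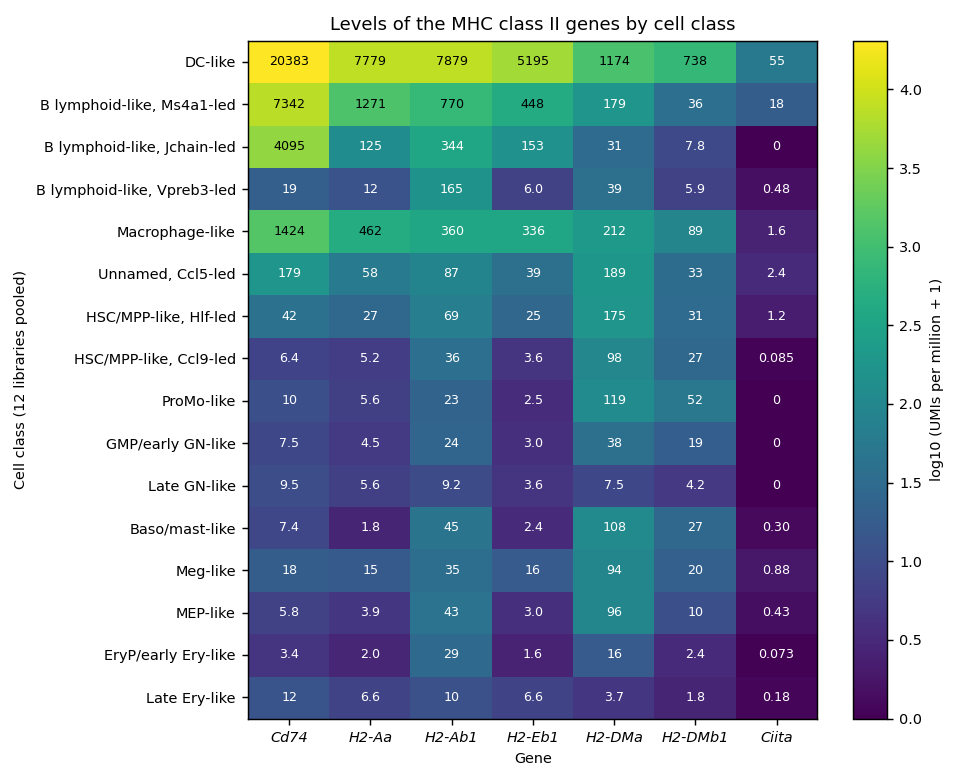
Level of the 7 genes (columns, CPM printed in each cell and coloured on a log10 scale) in each cell class (rows), over the 12 libraries together. DC-like cells stand highest for all 7, with Cd74 at 20383, while H2-DMa and H2-Ab1 remain above their late erythroid-like level (3.72 and 10.5) across most stem, myeloid and erythroid progenitor classes.

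Outside the carriers, low counts had to be set against free RNA, which puts stray UMIs into every droplet. Late erythroid-like cells, which should lack these genes, served as the reference (median 3912 UMIs per cell). With each cell thinned to 1500 UMIs, 1.47% of them (95% exact interval 1.03 to 2.04, and 3.53% before thinning) held a Cd74 UMI. The share was 0.656% in the granulocyte-monocyte progenitor (GMP)-like and early granulocyte (GN)-like class, 0.567% in early erythroid-like (EryP) cells and 0.789% in monocyte progenitor (ProMo)-like cells, each below that reference over the libraries together. Within libraries the reference varied, from 1.20 to 37.9 CPM of Cd74, with 56 of its 135 Cd74 UMIs in WT T2, and the ProMo-like level was above it in 5 of 12 libraries (32.5 against 1.20 CPM in E2-KO T3, the widest gap). The GMP-like and EryP-like levels were above it in 4 and 1 of 12. Before thinning these shares were 2.94%, 3.27% and 4.82%, at median depths of 6944, 11642 and 10221 UMIs per cell. ProMo-like cells were then above the reference (3.53%). Thinning removes more UMIs from deeper cells, so the order of these classes and the reference depends on it. The cluster of stem cell and multipotent progenitor (HSC/MPP)-like cells led by Hlf, a stem cell transcription factor, had a median of 4768 UMIs. Its thinned share was 4.52% (3.57 to 5.63, and 11.3% before thinning), above the reference. In DC-like cells (median 5063 UMIs) it was 99.2%. Intervals cover counting error only, and the 50 cells under 1500 UMIs were left out.

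For H2-DMa the pattern was wider. A UMI was found in 0.504% of thinned late erythroid-like cells (1.68% before thinning), in 18.6% of HSC/MPP-like cells (52.7% before thinning), in 15.6% of ProMo-like cells (63.6% before thinning) and in 16.0% of basophil and mast (Baso/mast)-like cells (42.5% before thinning). The median depth was 5942 UMIs in HSC/MPP-like and 5584 in Baso/mast-like cells. The levels were 175 CPM in the Hlf-led HSC/MPP-like cluster, 98.2 in the HSC/MPP-like cluster led by Ccl9, 119 in ProMo-like, 108 in Baso/mast-like and 3.72 in late erythroid-like cells. H2-DMb1 reached 52.1 CPM in ProMo-like cells. For H2-Ab1 a UMI was found in 20.5% of the Vpreb3-led cells against 1.39% of the late erythroid-like cells (47.2% and 3.91% before thinning, at median depths of 3832 and 3912). Cd74 was found in 2.44% of the thinned Vpreb3-led cells (1.78 to 3.26, and 4.68% before thinning) and in 2.83% of HSC/MPP-like cells (2.27 to 3.48, and 8.21% before thinning).

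The ratio of 1 gene to another differed between classes. Intervals here cover counting error only and leave out the spread between libraries. H2-Ab1 had 1.01 UMIs for each H2-Aa UMI in DC-like cells (95% interval 0.986 to 1.04). Without G12D/E2-KO T1 these cells held 3702 H2-Ab1 and 3966 H2-Aa UMIs. Single libraries ran from 33 against 57 UMIs (E2-KO T3) to 224 against 192 (E2-KO T2). The ratio was 0.606 in the Ms4a1-led B cells and 1.59 (1.18 to 2.15) in late erythroid-like cells. The ratio was 14.1 (11.5 to 17.5) in the Vpreb3-led precursors, 14.6 (12.0 to 18) in EryP-like cells and 25.2 (11.3 to 69.7) in Baso/mast-like cells. H2-DMa had 0.0576 UMIs for each Cd74 UMI in DC-like cells, 0.311 in late erythroid-like cells and 11.5 (10.1 to 13.2) in ProMo-like cells. H2-Eb1 lay near H2-Aa in EryP-like cells, which held H2-Aa at 1.96 CPM, H2-Eb1 at 1.65 and H2-Ab1 at 28.7. In the B lymphoid-like cells that leaned to later B cells H2-Eb1 was at 510 CPM and H2-Aa at 998. The genes were thus not alike in every class.

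Ciita was too sparse for a level outside DC-like cells, with 113 UMIs in all. GMP-like and early GN-like, late GN-like and ProMo-like cells held none, which allows up to 0.0596%, 0.0373% and 0.131% of cells with a UMI at these depths, taken as 3 counts of the total (upper ends of the 95% exact interval 0.0733%, 0.0459% and 0.162%).

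A part of the remaining signal was in single cells. Of the 30394 other cells, 70 held 10 or more UMIs of Cd74, H2-Aa, H2-Ab1 and H2-Eb1 together, and these 70 held 20.5% of the 4 genes' UMIs in other cells. The largest number, 20, was in an unnamed cluster of 770 cells led by Ccl5, Cox6a2, Dntt and Flt3, and 12 were in the Hlf-led HSC/MPP-like cluster. Without the 70 cells the 4 genes stood at 39.2 CPM in other cells against 49.2 with them. The unnamed cluster held Cd74 at 179 CPM and H2-DMa at 189, with Siglech, a plasmacytoid DC gene, at 53.1 and Dntt, a gene of early lymphoid cells, at 989. Gzma and Klrd1 were also among its leading genes. Its marker score was highest for T and natural killer lymphoid cells (2.13) and next for HSC/MPP (1.93), too close for a name. Across libraries its Cd74 level ran from 11.9 to 1684 CPM.

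By library, the classical genes and Cd74 were dominated by 1 sample. Cd74 stood at 86.0, 66.2 and 29.3 CPM at T1, T2 and T3 in WT and at 39.5, 39.8 and 31.7 in E2-KO. It stood at 147, 44.8 and 95.1 in G12D and at 834, 117 and 34.0 in G12D/E2-KO. G12D/E2-KO T1 was several times above any other library, whereas T2 of that genotype lay above the WT libraries by less than their own range and T3 lay within it. The genotype means were 60.5 ± 28.8 in WT, with 37.0 ± 4.59 for E2-KO, 95.6 ± 51.1 for G12D and 328 ± 440 for G12D/E2-KO (SD, n = 3).

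H2-Aa was at 31.7, 30.1 and 16.6 CPM in WT, with 15.8, 12.1 and 9.81 for E2-KO, 48.2, 14.5 and 47.7 for G12D and 303, 51.1 and 15.3 for G12D/E2-KO. H2-Eb1 was at 22.4, 17.6 and 10.2 CPM in WT, with 9.16, 10.2 and 7.44 for E2-KO, 33.8, 10.2 and 30.8 for G12D and 210, 33.3 and 9.07 for G12D/E2-KO. Both were highest in the same library as Cd74, and the E2-KO values of H2-Aa lay below all 3 WT values, as did those of 9.94% of the 13143 genes tested in all cells. H2-Ab1 was at 53.6, 49.1 and 30.2 CPM in WT, with 48.1, 60.3 and 27.7 for E2-KO, 62.9, 45.0 and 61.8 for G12D and 339, 76.6 and 29.3 for G12D/E2-KO. Apart from G12D/E2-KO T1, its values in the 4 genotypes overlapped.

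For the peptide-exchange genes G12D/E2-KO T1 stood less far apart, and H2-DMa varied less than the classical genes. H2-DMb1 still ran from 6.09 to 46.0 CPM, and to 28.8 apart from that library. H2-DMa was at 46.6, 45.6 and 46.8 CPM in WT, with 48.4, 45.4 and 33.4 for E2-KO, 70.2, 49.5 and 71.4 for G12D and 92.7, 58.5 and 45.0 for G12D/E2-KO. H2-DMb1 was at 11.8, 16.1 and 14.5 in WT, with 14.0, 13.3 and 6.09 for E2-KO, 24.5, 18.8 and 28.8 for G12D and 46.0, 16.5 and 17.8 for G12D/E2-KO. For both, all 3 G12D libraries lay above all 3 WT libraries, as they did for 7.28% of all genes tested. Ciita was at 0.475, 0.338 and 0.256 in WT, with 0.158, 0.139 and 0.158 for E2-KO, 0.558, 0.171 and 0.297 for G12D and 2.42, 0.377 and 0.259 for G12D/E2-KO, on 2 to 54 UMIs per library.

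**Figure D3:**
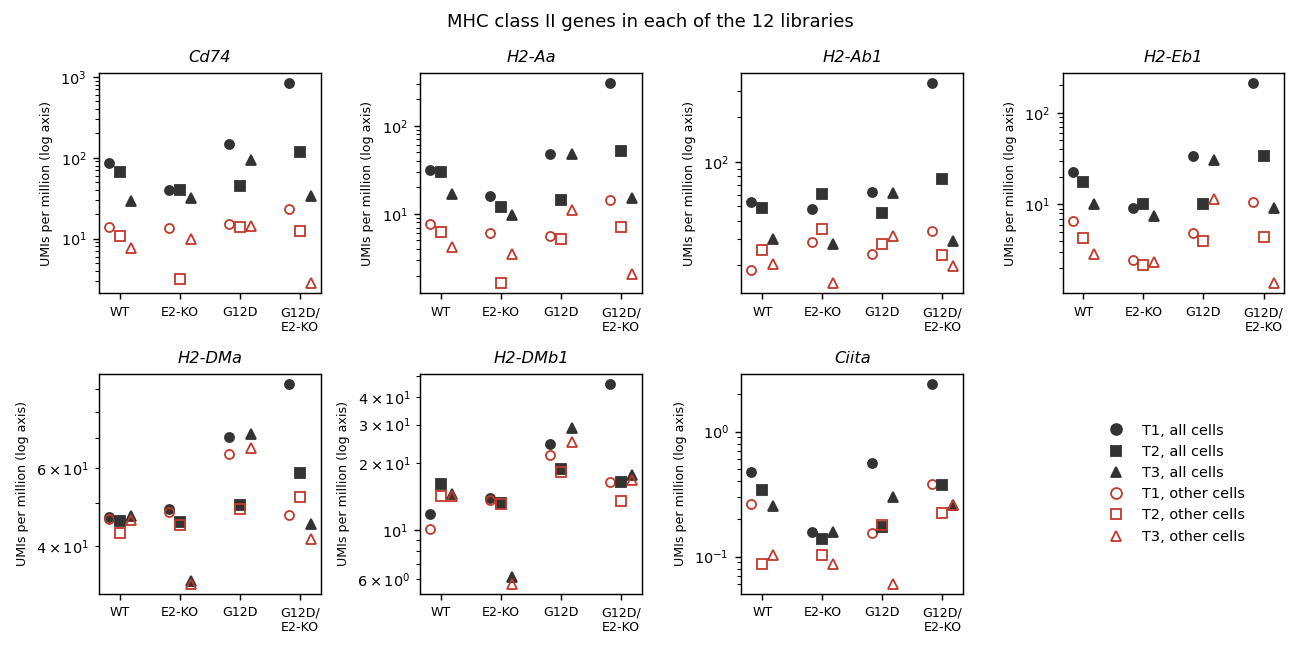
Level of each gene (CPM, log axis) in each of the 12 libraries, for all cells and for other cells only. G12D/E2-KO T1 stands apart for Cd74 (834) and the classical genes in all cells and much less in other cells (23.4 for Cd74), and a level of 0, as for Ciita in other cells of E2-KO T1, is not drawn.

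The sum of the 7 genes was then split by source. DC-like cells contributed 115, 98.5 and 42.5 CPM of the 7 genes' summed level in WT and 36.4, 49.6 and 23.6 in E2-KO. They contributed 225, 41.8 and 165 in G12D and 1667, 237 and 53.6 in G12D/E2-KO. Other cells contributed 93.6, 100 and 94.7 in WT, with 103, 90.9 and 62.7 for E2-KO, 133, 113 and 157 for G12D and 139, 110 and 84.5 for G12D/E2-KO. The DC-like contribution therefore spanned 23.6 to 1667 CPM over the libraries and the contribution of other cells 62.7 to 157. B lymphoid-like cells contributed at most 38.6 CPM, in E2-KO T2. DC-like cells held 91.2% of the 7 genes' UMIs in G12D/E2-KO T1 and 20.3% in E2-KO T3, the lowest.

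**Figure D4:**
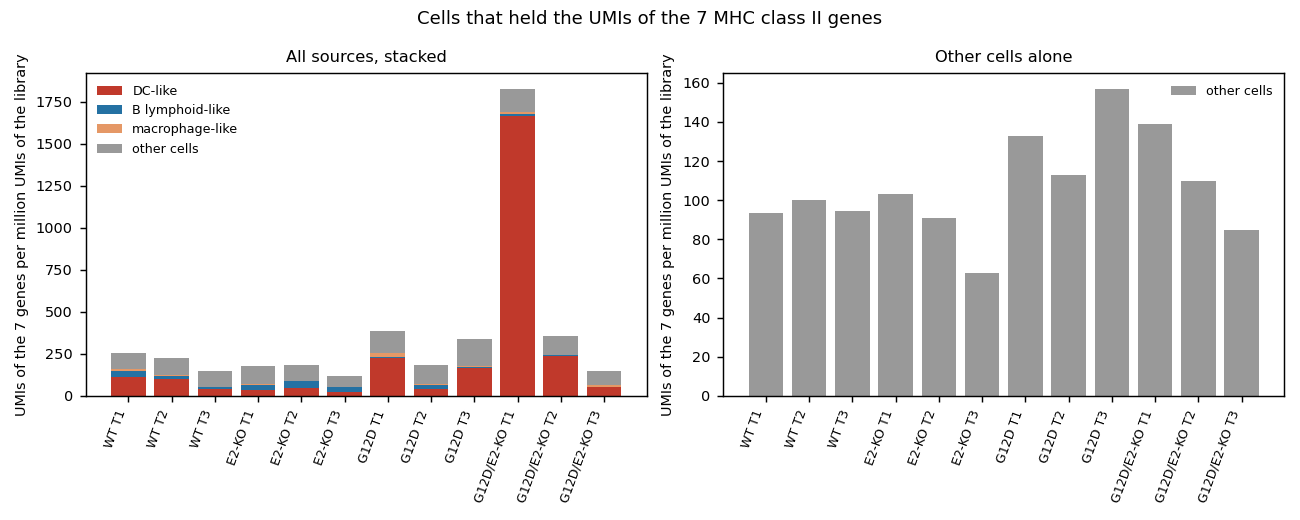
Summed level of the 7 genes (CPM) in each library, stacked by the class of cell the UMIs came from. The DC-like part runs from 23.6 (E2-KO T3) to 1667 (G12D/E2-KO T1) and the part from other cells from 62.7 to 157.

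The share of cells that were DC-like was compared next. They were 0.383, 0.352 and 0.0837% of cells in WT and 0.164, 0.204 and 0.116% in E2-KO. They were 0.618, 0.0829 and 0.706% in G12D and 4.34, 0.823 and 0.420% in G12D/E2-KO, where T1 had 132 such cells (3.64 to 5.12%). The means were 0.273 ± 0.165, 0.161 ± 0.0441, 0.469 ± 0.337 and 1.86 ± 2.16% (SD, n = 3). Over the 6 pairs of libraries that differed in NRas G12D and matched in Ezh2 and time, the share was higher with G12D in 5 of 6, by 0.947 percentage points (SD 1.61, two-sided exact sign-flip permutation p = 0.09375, adjusted over 6 tests 0.281, where the smallest p possible is 0.03125). Without G12D/E2-KO T1 and its pair the difference was 0.302 points over 5 pairs. For loss of Ezh2 it was higher in 3 of 6 pairs (0.640 points, exact permutation p = 0.4688, adjusted 0.562), and without that library and its pair the difference was 0.0240 points, so 1 library carried nearly all of it. Of the 132 DC-like cells, 125 were among the shared cells (4.32% of those 2896), and 7 were among the 148 cells found in G12D/E2-KO T1 alone, which is 4.73%. The share in that library was thus about as high without the shared cells, though on 7 cells, and the cells found in G12D T1 alone had 0.618%. With the shared cells left out of both libraries the G12D difference was 1.01 points and the Ezh2 difference 0.705, and with the tables as deposited they were 1.26 and 0.324. Counting cells directly by detected markers (2 or more of a class, and more than of the other carrier classes) gave 12, 11 and 6 DCs in WT, 13, 11 and 10 in E2-KO, 28, 10 and 21 in G12D and 106, 39 and 2 in G12D/E2-KO, and held 90 of the 132 DC-like cells of G12D/E2-KO T1 but 46 of the 113 of the other 11 libraries, among 163 cells so counted there. That library was thus the highest by either count, and the G12D difference by direct count was 0.735 points.

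B lymphoid-like cells, mostly precursors, were 10.6, 5.84 and 0.879% of cells in WT and 13.4, 14.1 and 13% in E2-KO. They were 1.20, 4.93 and 1.72% in G12D and 1.64, 4.14 and 0.0382% in G12D/E2-KO. The share was higher with G12D in 1 of 6 pairs (difference -7.35 points, SD 5.84, exact permutation p = 0.06250, adjusted 0.281) and higher without Ezh2 in 4 of 6 (3.53 points, exact permutation p = 0.2188, adjusted 0.422). A single difference at the smallest p would adjust to 0.1875 over the 6 tests, so this design could hardly give a call. The share of the 7 genes' UMIs found in other cells differed by -11.8 points with G12D (exact permutation p = 0.2812, and by 7.67 points in the other direction with a direct marker gate in place of clusters) and by -5.16 points without Ezh2 (p = 0.5625, exact permutation). Without G12D/E2-KO T1 and its pair these were -3.92 and -0.829 points, and the Ezh2 difference was -10.6 points without E2-KO T1 and its pair and -0.0163 without G12D/E2-KO T2 and its pair. The Ezh2 difference in B lymphoid-like cells was 1.82 points without E2-KO T3 and its pair. Enrichment for c-Kit sets how many mature cells enter a library, and its part in these shares was not tested.

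Genotypes were then compared over all genes with edgeR, with time as a further term, first in the summed counts of all cells. In such sums fewer cells of a type and less RNA per cell cannot be told apart. None of the 7 genes passed an adjusted p of 0.05 in any contrast, with edgeR or DESeq2. The share of all 13143 genes called was 1.65% for E2-KO against WT, 0.107% for G12D against WT, 5.71% for G12D/E2-KO against WT and 0.0913% for the interaction of the 2 alleles, and 0% for T2 or T3 against T1. By edgeR none of the 7 genes had an unadjusted p under 0.05 in the 3 genotype contrasts. Of all genes, 16.2%, 11.8% and 26.3% had one for E2-KO, G12D and G12D/E2-KO, and 3.73% or more in every contrast. The sparse Ciita alone had one in the interaction, T2 and T3 (edgeR unadjusted p = 0.0197, 0.0145 and 0.0143). By DESeq2, 4 members had one in G12D/E2-KO: Cd74, H2-Aa, H2-Eb1 and H2-DMb1 (DESeq2 unadjusted p = 0.0313, 0.0497, 0.0425 and 0.0384). In G12D 1 had (H2-DMb1, 0.0325) and in E2-KO none. For G12D/E2-KO, G12D and E2-KO, 24.3%, 10.8% and 14.6% of all genes had one by DESeq2. In the interaction, T2 and T3, DESeq2 gave 1, 1 and 3 members, against 3.39%, 4.07% and 11.8% of all genes. Against G12D/E2-KO's background of 5.71%, 0 of 7 is no result about these genes.

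The estimates were large and loose. Against WT, Cd74 differed in G12D/E2-KO by a log2 fold change of 1.84 (SE 0.94, edgeR adjusted p = 0.265), H2-Eb1 by 1.80 (SE 0.96, adjusted p = 0.286), H2-Aa by 1.68 (SE 0.93, adjusted p = 0.301) and H2-Ab1 by 1.37 (SE 0.72, adjusted p = 0.271). Ciita differed by 1.16, H2-DMb1 by 0.76 and H2-DMa by 0.41. Without G12D/E2-KO T1 the values were 0.44 for Cd74, 0.39 for H2-Eb1, 0.40 for H2-Aa, 0.18 for H2-Ab1, 0.16 for H2-DMb1 and 0.10 for H2-DMa. Ciita had no value there, its counts being below the filter. A single library thus carried most of the difference of these 6 genes. With the shared cells counted in both tables, Cd74 differed from WT by 1.59 in G12D/E2-KO (edgeR adjusted p = 0.311) and by 1.32 in G12D (adjusted p = 0.579), against 0.72 in G12D with them removed. The median over the 7 genes was 1.37, against a median within 0.03 of 0 over all genes.

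In other cells the G12D/E2-KO estimates were smaller, with standard errors still wide for Cd74 and H2-Aa. None of the 6 members tested there (all but Ciita) was called either, by edgeR or DESeq2, against 1.56% (E2-KO), 0.117% (G12D), 6.51% (G12D/E2-KO), 0.0388% (interaction) and 0% (T2 and T3 against T1) of 12871 genes. In G12D/E2-KO against WT, the log2 fold change was 0.09 for Cd74 (SE 0.63), 0.25 for H2-Aa (SE 0.63) and 0.17 for H2-Eb1. It was 0.20 for H2-Ab1, 0.19 for H2-DMb1 and -0.01 for H2-DMa. The libraries diverged: Cd74 in other cells was at 23.4, 12.5 and 2.80 CPM in G12D/E2-KO, against 14.0, 10.9 and 7.75 in WT. The members' median was 0.18 there and 1.37 with all cells counted.

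**Figure D5:**
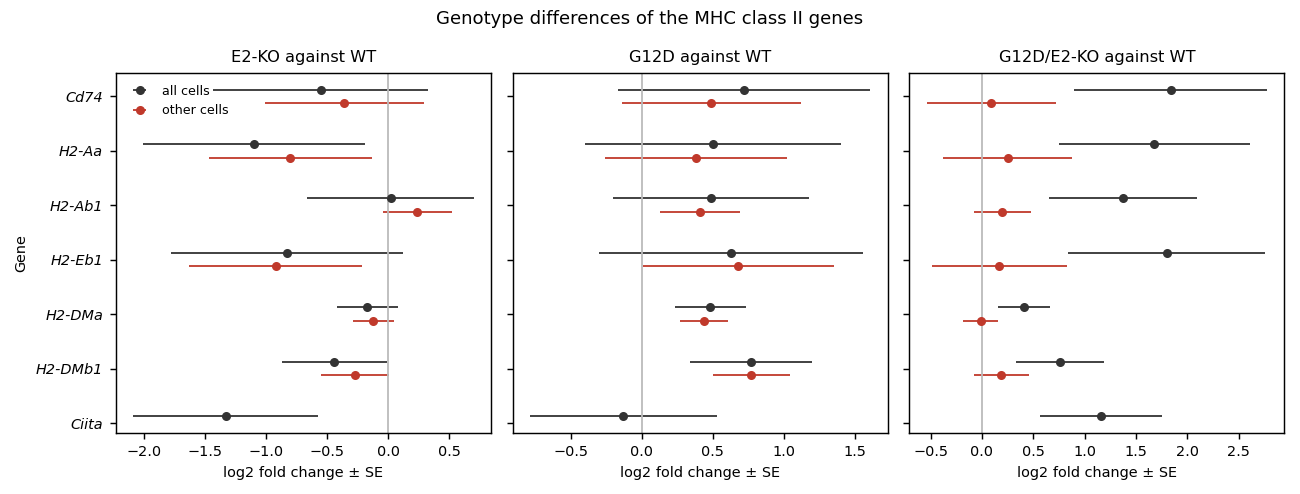
Log2 fold change against WT (edgeR, bars show the standard error) of each gene in the 3 mutant genotypes, for all cells and for other cells. In G12D/E2-KO, Cd74 stands at 1.84 in all cells and at 0.09 in other cells, and Ciita has no value in other cells, where its counts were below the filter.

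The 2 unadjusted edgeR p-values under 0.05 in other cells were both of peptide-exchange genes in G12D, where 12.3% of all genes had one. H2-DMb1 differed from WT by 0.77 (unadjusted p = 0.0156, edgeR adjusted p = 0.307) and H2-DMa by 0.44 (unadjusted p = 0.0233, adjusted 0.337). Their levels in other cells were 10.1, 14.3 and 14.2 CPM in WT against 21.8, 18.3 and 25.1 in G12D for H2-DMb1, and 46.1, 42.8 and 45.9 against 64.3, 48.4 and 66.4 for H2-DMa. The groups did not overlap, and all 3 G12D libraries lay above WT for 8.27% of the genes tested in other cells. ProMo-like cells, where both genes were well above the reference, numbered 121, 162 and 133 in WT and 315, 170 and 333 in G12D. Within ProMo-like cells the G12D difference was 0.30 for H2-DMb1 and 0.11 for H2-DMa, and within HSC/MPP-like cells -0.00 and 0.05. Within GMP-like and early GN-like cells it was 0.63 for H2-DMb1 (SE 0.21, unadjusted p = 0.00602, edgeR adjusted p = 0.537), on 27.7, 25.6 and 22.1 CPM in G12D against 15.6, 15.6 and 19.5 in WT, and 0.22 for H2-DMa. Within late GN-like cells it was 0.58 for H2-DMb1 (edgeR unadjusted p = 0.131) and 0.16 for H2-DMa. The part of cell numbers in the difference was not tested further.

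In E2-KO against WT, all cells gave -1.10 for H2-Aa, -0.83 for H2-Eb1, -0.55 for Cd74, 0.02 for H2-Ab1, -0.17 for H2-DMa, -0.44 for H2-DMb1 and -1.33 for Ciita, with edgeR adjusted p-values of 0.412 or more. With only the 6 libraries of these 2 genotypes in the fit, H2-Aa (-1.05, edgeR adjusted p = 0.00256) and H2-Eb1 (-0.88, adjusted p = 0.0136) passed, and in other cells H2-Eb1 (-0.94, adjusted p = 0.0383). The share of all genes called rose with them, to 5.24% in all cells and 5.89% in other cells. That fit leaves out the wide spread of the G12D/E2-KO libraries. DC-like cells, which held 45.7 to 73.4% of either gene in each of these libraries, were 4, 6 and 3 cells in E2-KO and 9, 10 and 2 in WT.

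Time was compared in the same fit. Against T1, Cd74 differed by -1.41 at T2 and -1.73 at T3, and H2-Aa by -1.32 and -1.39, with no call (0% of all genes). The mean of Cd74 over the 4 genotypes was 277 ± 374 CPM at T1, 67.0 ± 35.3 at T2 and 47.5 ± 31.8 at T3 (SD, n = 4). Without G12D/E2-KO T1 the Cd74 values were -0.39 and -0.96.

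Within single classes, edgeR called none of the 6 members tested in HSC/MPP-like cells (all but Ciita) and none of the 5 tested in ProMo-like cells (all but Ciita and H2-Eb1), and neither did DESeq2. The share of all genes called was 0.313%, 0.156% and 1.26% against WT in HSC/MPP-like cells for the single Ezh2 deletion, the single NRas allele and both together (9598 genes), with 0.0417% for the interaction, 0.0208% for T2 and 0.0834% for T3. In ProMo-like cells (9059 genes) it was 1.16%, 0.155%, 3.09%, 0.0773%, 0.0221% and 0.0331%. Over the 24 contrasts in all, other, HSC/MPP-like and ProMo-like cells, 14 of 144 edgeR tests and 18 of 144 DESeq2 tests of these genes had an unadjusted p under 0.05, against 10.9% and 8.53% of the tests of all genes.

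The nearest to a call was H2-DMa in HSC/MPP-like cells. It stood at 169, 143 and 140 CPM in WT and at 117, 112 and 73.6 in G12D/E2-KO, a log2 fold change of -0.56 (SE 0.16, edgeR adjusted p = 0.0747, DESeq2 adjusted p = 0.175). All 3 G12D/E2-KO values were below all 3 WT values, as for 9.08% of the 10041 genes with 60 or more UMIs in these cells, and in 1 of 12 fits that left out a library the call passed. H2-DMb1 in the same cells stood at 30.9, 37.6 and 36.1 CPM in WT and at 19.3, 26.1 and 10.2 in E2-KO (log2 -0.81, edgeR adjusted p = 0.202). H2-Eb1 was higher in G12D by 2.04 (SE 0.91, edgeR adjusted p = 0.999), on 14.0, 10.9 and 54.9 CPM against 4.18, 6.17 and 8.72 in WT, and by 0.85 without G12D T3. With the libraries of WT and G12D alone in the fit, H2-Eb1 (2.07, edgeR adjusted p = 6.54e-07) and Cd74 (1.18, adjusted p = 3.11e-04) passed in these cells, where that fit called 1.27% of all genes.

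Cd74 in the Hlf-led cluster, where the share of cells with a UMI was above the reference, differed between libraries. It stood at 22.6, 46.6 and 36.5 CPM in WT and at 19.6, 14.6 and 11.5 in E2-KO. It stood at 54.7, 65.9 and 133 in G12D and at 48.6, 8.91 and 12.5 in G12D/E2-KO. All 3 G12D values lay above those of WT, as for 3.35% of the 8636 genes with 60 or more UMIs in this cluster, and all 3 E2-KO values below them, as for 8.52%. G12D/E2-KO spanned from below E2-KO to above WT, and the values rest on 4 to 110 UMIs per library. The cluster was not tested alone. Over all HSC/MPP-like cells the log2 fold change of Cd74 was 1.14 in G12D (SE 0.70, edgeR adjusted p = 0.999) and -1.08 in E2-KO (SE 0.93, edgeR adjusted p = 0.760).

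H2-DMa was also compared between G12D/E2-KO and WT class by class. Its log2 fold change was -0.56 in HSC/MPP-like, -0.46 in GMP-like, -0.41 in MEP-like (megakaryocyte-erythroid progenitor), -0.38 in EryP-like, -0.30 in ProMo-like and -0.27 in megakaryocyte-like cells, with edgeR adjusted p-values of 0.0747, 0.213, 0.552, 0.429, 0.610 and 0.836, none of which passed. In late GN-like cells it was 0.34 (edgeR adjusted p = 0.583), on 8.98, 10.4 and 6.62 CPM against 5.87, 8.86 and 4.24 in WT. These classes come from the same libraries and do not count as separate evidence. In ProMo-like cells the levels were 127, 88.2 and 158 CPM in WT and 130, 109 and 69.3 in G12D/E2-KO, which overlap.

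H2-Ab1 was measured in precursors of every genotype. In the Vpreb3-led cells it stood at 160, 212 and 88.0 CPM in WT, at 169, 200 and 91.7 in E2-KO, at 92.7, 218 and 157 in G12D and at 152 and 117 in G12D/E2-KO at T1 and T2, with no such cell at T3. In EryP-like cells it stood at 18.3, 30.9 and 20.2 CPM in WT, at 30.8, 41.9 and 18.4 in E2-KO, at 28.6, 31.6 and 32.6 in G12D and at 44.9, 21.1 and 30.1 in G12D/E2-KO. The genotypes overlapped in the Vpreb3-led cells. In EryP-like cells the log2 fold changes against WT were 0.42, 0.47 and 0.54 (edgeR adjusted p = 0.553, 0.986 and 0.361).

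Of 7 further classes, examined after the data had been seen, 2 held calls. In late erythroid-like cells, where 1.98% of 5665 genes were called for E2-KO against WT, Cd74 fell by 2.73 on the log2 scale (SE 0.62, edgeR adjusted p = 0.0198, DESeq2 adjusted p = 0.0446) and H2-Eb1 fell by 2.49 (SE 0.63, edgeR adjusted p = 0.0357, DESeq2 adjusted p = 0.104). DESeq2 called 1.36% of all genes there. Cd74 stood there at 4.59, 37.9 and 10.5 CPM in WT, on 3, 56 and 9 UMIs, and at 3.16, 2.74 and 1.20 in E2-KO, on 4, 3 and 2 UMIs. The WT T2 library was the high one, and without it the log2 value was -1.49 and the call was lost. In WT T2, 3 of the 254 late erythroid-like cells held 37 of the 56 Cd74 UMIs, and without them the level was 13 CPM. Over all libraries 4 cells with 10 or more UMIs of Cd74, H2-Aa, H2-Ab1 and H2-Eb1 held 26.1% of the class's 403 UMIs of these genes. Leaving out each library in turn, Cd74 kept its call in 7 of 12 fits and H2-Eb1 in 5 of 12. This class is the background reference used above, and DC-like cells, which held 36.7 to 65.0% of the Cd74 UMIs of these libraries, numbered 9, 10 and 2 in WT and 4, 6 and 3 in E2-KO. The part of free RNA in the difference was not tested.

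In Baso/mast-like cells, where 0.572% of 4018 genes were called for G12D/E2-KO against WT, H2-DMa fell by 1.03 (SE 0.25, edgeR adjusted p = 0.0429, DESeq2 adjusted p = 0.265). It stood at 129, 146 and 182 CPM in WT and at 53.8, 82.0 and 74.8 in G12D/E2-KO, with no overlap (all 3 below WT for 7.80% of the 5461 genes with 60 or more UMIs), and the call held in 4 of the 12 fits that left out a library. In the other 40 contrasts of the 7 classes edgeR and DESeq2 called none of the members tested, against 0 to 4.78% of all genes called (median 0.0884%). Over all 42 contrasts, 34 of 192 edgeR tests and 29 of 192 DESeq2 tests of members had an unadjusted p under 0.05, against 8.75% and 5.09% of the tests of all genes.

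Of 32 further genes of the class II pathway, 31 had a column and 29 were tested. H2-Ea-ps was not analysed here. None of the 29 passed with edgeR in any contrast, in all cells or in other cells, where 6 and 7 of them had an unadjusted p under 0.05 for G12D against WT and 1 to 5 in each other contrast (7 and 7 by DESeq2 for G12D). Of all genes 11.8% and 12.3% had one by edgeR for G12D, and 3.68 to 26.3% in the other contrasts. DESeq2 called 1 in all cells and 2 in other cells for G12D against WT, against 1.10% and 1.29% of all genes, and none in the other contrasts. These were Ifngr2, a chain of the interferon gamma receptor, in both (0.67, DESeq2 adjusted p = 0.0491, and 0.70, adjusted p = 0.0292), and in other cells Irf8, a transcription factor of monocytes and DCs (0.88, DESeq2 adjusted p = 0.00938). By edgeR Ifngr2 differed by 0.65 in all cells (SE 0.17, adjusted p = 0.237) and by 0.69 in other cells (SE 0.17, adjusted p = 0.201), and Irf8 by 0.88 (SE 0.20, adjusted p = 0.188). Irf8 was among the leading genes of the ProMo-like cluster. Such cells numbered 121, 162 and 133 in WT and 315, 170 and 333 in G12D, and the part of cell numbers in the Irf8 difference was not tested. The pathway genes named next were chosen after their values were seen. Transcription partners were expressed in every genotype: Rfxap had a mean level of 30.3 CPM in WT, with 30.5, 23.1 and 24.9 in the mutants in the order used above, and Nfyb at 55.7, 48.5, 52.4 and 46.2. The lysosomal proteases Ctsb (75.6, 81.2, 78.8 and 79.3) and Ctsd (79.5, 78.1, 76.3 and 81.0) differed little between genotype means, and Ctss, the protease known for cutting the invariant chain, was at 11.3, 9.73, 21.6 and 14.3. The remaining class II genes were low, with H2-DMb2, H2-Oa and H2-Ob at no more than 10.6 CPM and H2-Eb2 at no more than 0.464 in any library. The costimulatory ligands Cd80 and Cd86, which mature antigen-presenting cells carry, reached at most 0.808 and 4.67 CPM.

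Across the 29 WT clusters, the 5 other genes whose level was most like the mean of H2-Aa, H2-Ab1 and H2-Eb1 were Irf5, Pld4, Mvp, Rnase6 and Psap (Pearson r on log2 CPM of 0.910, 0.873, 0.861, 0.851 and 0.836). Without the DC cluster r was 0.854, 0.793, 0.665, 0.808 and 0.645. Among the members outside that mean, Cd74 had r of 0.941, H2-DMb1 0.812 and H2-DMa 0.634. Without the DC cluster these were 0.942, 0.561 and 0.412. Ciita, with 21 UMIs in WT, was too sparse for r. Clusters share libraries and were themselves built from these cells, so r is a description.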

How the data were processed

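Single-cell 3′ RNA was measured in 12 libraries, 1 per genotype and time point. The deposited files hold raw UMI counts per gene and cell, made by the authors with Cell Ranger on mm10. Per the study's methods, cells above 10% mitochondrial counts and Scrublet doublets had been removed, so no doublet caller was run here. The 7 members and all lists were chosen with earlier results of these data known. Cells found in 2 tables (similarity of log counts above 0.9) were kept in 1. WT cells were clustered (scanpy 1.11.5, 1989 variable genes with 11 class II genes left out, 50 components, 15 neighbours, Leiden resolution 2; leidenalg 0.10.2) into 29 clusters, of which 26 were named from listed markers. Cells of the other genotypes took the class of their nearest WT cell, a step that returned the same class for 96.1% of WT cells when each WT library was mapped onto the other 2.

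UMIs were summed per library and class and tested with edgeR 4.0.16 (filterByExpr, TMM, quasi-likelihood, genotype and time point as terms, 6 residual degrees of freedom, Benjamini-Hochberg adjustment over all genes tested, R 4.3.3). A class was tested if every library had 10 cells or more, which left out DC-like, B lymphoid-like and macrophage-like cells. The libraries held 12636998 to 23646292 UMIs. Shares were compared by exact sign-flip permutation. The 7 members were always named. Pathway genes were to be named if called, and the 5 genes most like the members by Pearson r on log2(CPM + 10), among genes with 200 UMIs or more in WT. DESeq2 1.42.0, no TMM, no filter, 2 genotypes alone, other clusterings, a direct marker gate, the tables as deposited and each library left out were alternatives. Scripts were tested on simulated data. Replicate numbers mark a time point only and are not pairs of animals, and labels do not say how many mice a library held, so p-values measure the spread between libraries.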

Additional observations from a re-analysis of the deposited data

How the results depend on the processing

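Over 10 alternative settings and 12 fits or shares with a library left out, 1754 values were recomputed and 1638 kept their direction and their side of the threshold. Of 540 values of single genes 478 kept both their sign and their side of the threshold, and 36 had the opposite sign. Of 1122 counts of members called 53 moved. The calls of members were 2 in E2-KO and 1 in other cells of E2-KO, 2 in HSC/MPP-like cells of G12D (H2-Eb1 and Cd74) and 1 in ProMo-like cells of E2-KO (2.13% of all genes called there) when only the 2 genotypes compared were in the fit. With no filter on low counts, members were called in 21 fits, in which 0.106 to 4.41% of all genes were called (median 0.423%). The counts that differed were ProMo-like T2 1, GMP-like E2-KO 1, G12D/E2-KO 2, interaction 3 and T3 1, late GN-like G12D/E2-KO, interaction, T2 and T3 1 each, EryP-like E2-KO, T2 and T3 1 each, late erythroid-like interaction 3, Meg-like (megakaryocyte) E2-KO, G12D, G12D/E2-KO and T3 1 each and T2 2, and Baso/mast-like T3 1. With DESeq2, late erythroid-like E2-KO had 1 call in place of 2 and Baso/mast-like G12D/E2-KO 0 in place of 1. The direct gate turned the G12D difference in the share of UMIs in other cells to 7.67 points.

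Replicate numbers are time points, and the model already held time. Same-numbered libraries correlated from -0.208 to 0.432 in their deviations (median 0.111, 11 of 18 over 0.1), those of different number with a median of -0.0443, so the numbers were taken as time points and not as pairs. Without this replicate block, late erythroid-like E2-KO had 1 call and Baso/mast-like G12D/E2-KO 0, and H2-DMa of other cells in G12D/E2-KO was 0.00.

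Some values changed sign. H2-Ab1 in E2-KO was -0.00 with no filter and -0.01 with 2 genotypes, and Ciita in G12D was 0.59 with the tables as deposited. In other cells of G12D/E2-KO, 2 genotypes gave -0.12 for Cd74 and -0.06 for H2-Eb1, and H2-DMa was 0.06 without TMM, 0.39 with class II genes in the clustering, 0.09 with the direct gate and 0.02 with unnamed clusters left out. Leaving out each library gave -0.89 to 0.01 for Cd74 and -0.39 to 0.34 for H2-Ab1 in E2-KO. In G12D it gave -0.01 to 1.20 for Cd74, -0.67 to 0.24 for Ciita, -0.48 to 1.01 for H2-Aa, -0.18 to 0.80 for H2-Ab1 and -0.30 to 1.11 for H2-Eb1. In other cells of G12D/E2-KO it gave -0.42 to 0.66 for Cd74, -0.30 to 0.83 for H2-Aa, -0.16 to 0.39 for H2-Ab1, -0.14 to 0.15 for H2-DMa, -0.06 to 0.35 for H2-DMb1 and -0.68 to 0.77 for H2-Eb1. Calls ran from 0 to 2 in late erythroid-like E2-KO and GMP-like G12D/E2-KO, 0 to 3 in late GN-like G12D/E2-KO and the GMP-like interaction, and 0 to 1 in Baso/mast-like and HSC/MPP-like G12D/E2-KO, the late erythroid-like interaction, and T2 of late GN-like and ProMo-like cells. The share of all genes called in these fits was not set beside these counts. They show that calls depended on single libraries and are no result about these genes. Depth limits Ciita (113 UMIs) and DC-like cells (2 to 132 per library). With class II genes in the clustering no cluster was named DC-like. The cluster of 33 WT cells led by Cd74, H2-Aa, H2-Eb1 and H2-Ab1 was then named ProMo-like, scoring 3.57 against 2.99 for DC. Such cells thus fell among other cells, and that setting gave no DC-like share. The DC-like label, and the split by source that rests on it, therefore depends on the clustering. The tests of 7 further classes, leaving out the unnamed clusters and leaving out the shared cells were chosen after seeing the data.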
